A study of Mus musculus with 8 samples.

Results

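The 9 genes Mttp, Tm6sf2, Pltp, Lcat, Scarb1, Lrp1, Angptl4, Angptl8 and Gpihbp1 act in the assembly, remodelling and clearance of lipoproteins, and were compared between livers of mice with a liver-specific deletion of the ubiquitin ligase Huwe1 and livers of wild-type mice. They were taken by symbol from the authors' deposited table of 16640 genes, and all 9 were listed there. The Huwe1_LKO livers came from 4 mice with the deletion, and the WT livers came from 4 wild-type mice. Huwe1 RNA in Huwe1_LKO livers was still at 66.9% of the WT level, and the deposited value is not split by exon or by cell type. All 8 mice were 1 year old and had eaten a chow diet at will. The sources used here do not give the promoter that drove the deletion, the strain, the sex or the feeding state at harvest. Bulk RNA of whole liver was sequenced, and the series asked how loss of Huwe1 in the liver rewires lipid metabolism in fatty liver disease. The authors' deposited table gives each gene 1 normalized value per group and p-values from the 8 livers, and its log2 fold changes are of Huwe1_LKO over WT. No value of a single liver was analysed here, so the overlap of the groups cannot be described. The error given with each log2 fold change is its standard error (SE) as implied by the deposited p.

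The liver exports triglyceride in very low density lipoprotein, a particle built around apolipoprotein B in the endoplasmic reticulum. In plasma, lipoprotein lipase removes the triglyceride, transfer proteins and esterifying enzymes move phospholipid and cholesterol between the remnants and high density lipoprotein (HDL), and liver receptors take the particles up. Mttp and Tm6sf2 serve the first step, Pltp and Lcat the remodelling in plasma, Angptl4, Angptl8 and Gpihbp1 the control of the lipase, and Scarb1 and Lrp1 the uptake.

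In the authors' deposited table, Pltp and Mttp of the 9 genes fell in Huwe1_LKO livers and 0 rose. The other 7 did not pass an adjusted p of 0.05. Over all 16640 genes 9.97% passed that threshold, 4.41% as higher and 5.56% as lower. Each of the 9 genes had a mean value above 100, and among the 8793 genes of that level 15.0% passed. Of the 9, 4 had an unadjusted p under 0.05. The share of all genes under that unadjusted p was not computed, for this count or the later ones. The median log2 fold change was -0.02 over the 9 genes and 0.02 over all genes, and 5 of the 9 lay below 0. Pltp stood far apart from the other 8.

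**Figure D1:**
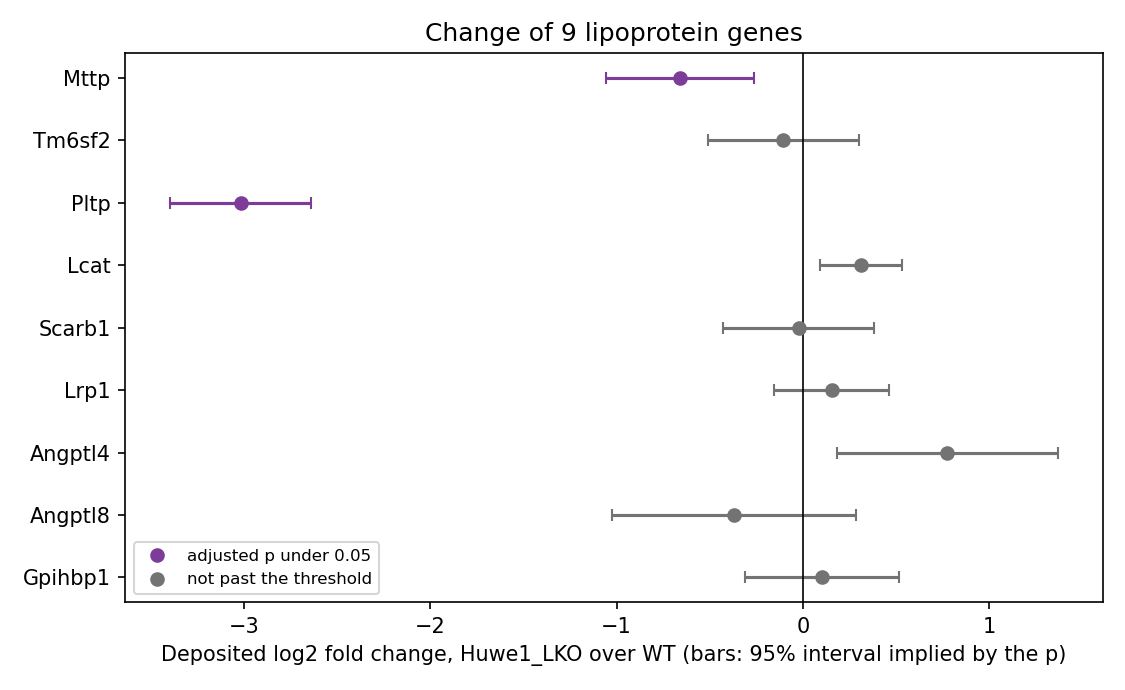
Change of Huwe1_LKO over WT livers as the deposited log2 ratio (x axis) for each of the 9 genes (rows), with bars for the 95% interval implied by the deposited p; purple marks an adjusted p under 0.05. Pltp lies at -3.02, far from the others, Mttp at -0.66, and the intervals of Tm6sf2, Scarb1, Lrp1, Angptl8 and Gpihbp1 include 0.

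Pltp encodes the phospholipid transfer protein, which moves surface phospholipid from lipolysed particles to HDL (Entrez ID 18830; chromosome 2, 164839518 to 164857708 in GRCm38, minus strand). The authors' deposited table gave it 506 in Huwe1_LKO livers and 4104 in WT livers, so that 12.3% of the WT level was left. On the log2 scale it fell by 3.02 (implied SE 0.19), an 8.11-fold lower level (95% interval 6.24 to 10.6). Its adjusted p of 4.67e-51 was the third smallest in the deposited table. Among the 12309 genes with a mean value of 10 or more it was the 6th largest fall.

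The genes around Pltp showed no called change. Of 13 other genes within 100 kb, 0 passed in the authors' deposited result from DESeq2, 4 had an unadjusted p under 0.05, and their log2 fold changes ran from -0.75 to 0.93. Over all genes 9.97% passed. Ctsa, the lysosomal protective protein gene on the opposite strand, shares 495 exonic bases with Pltp in GENCODE. Ctsa stood at 2992 in Huwe1_LKO livers and 3136 in WT livers (deposited adjusted p = 0.847). The sources used here do not say whether reads were counted by strand, so some reads in the shared bases may belong to either gene, and the part of such reads in the remaining Pltp value was not tested.

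The promoters of Pltp and of Lcat, the other plasma remodelling gene, are shown because Pltp had by far the larger change, while Lcat, at a higher level, did not fall. Each is the stretch of 250 bases before the RefSeq start (GRCm38.p6), 5′ to 3′ on the minus strand. Pltp lies at chr2:164857709-164857958 and Lcat at chr8:105943403-105943652. Capitals mark a CCAAT box (CCAAT) or a GC box (GGGCGG) on either strand.
Pltp: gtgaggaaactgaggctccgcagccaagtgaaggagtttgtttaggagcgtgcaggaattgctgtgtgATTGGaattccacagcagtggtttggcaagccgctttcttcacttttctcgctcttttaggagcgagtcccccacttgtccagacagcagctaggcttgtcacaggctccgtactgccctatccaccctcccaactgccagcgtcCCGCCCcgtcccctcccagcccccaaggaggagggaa
Lcat: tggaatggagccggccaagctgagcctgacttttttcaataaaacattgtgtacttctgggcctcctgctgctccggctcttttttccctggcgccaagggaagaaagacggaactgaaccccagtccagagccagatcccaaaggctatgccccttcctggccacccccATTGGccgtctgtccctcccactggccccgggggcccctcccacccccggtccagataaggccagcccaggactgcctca

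Both windows held 1 CCAAT box, present in 33.8% of all 32851 RefSeq windows of this length, and Pltp alone of the pair held a GC box, present in 32.7%. Neither held the letters TATAAA (12.4% of windows), the nuclear receptor half-site AGGTCA (14.0%), the direct repeats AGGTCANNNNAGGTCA (0.0152%) and AGGTCANAGGTCA (0.0335%), the sterol element TCACNCCAC (1.05%) or TGACGTCA (1.55%), each searched on both strands. The half-site is part of both direct repeats. These matches describe the letters of 1 window per gene only. GENCODE places a Pltp start at 164857711, just inside the window shown, and further starts at 164857633 and 164857542, downstream of it.

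Lcat encodes the enzyme that esterifies cholesterol on HDL (Entrez ID 16816; chromosome 8, 105939551 to 105943402). It stood at 10545 in Huwe1_LKO livers and 8494 in WT livers in the authors' deposited table. The log2 fold change of 0.31 had an implied SE of 0.11, a 1.24-fold ratio with a 95% interval of 1.07 to 1.45. With an adjusted p of 0.0546 it missed the threshold, and it passed (0.0416) where only genes with a mean value of 10 or more entered the adjustment. Over all alternatives run its adjusted p ranged from 0.0081 to 0.0657. Per kb of gene length, Pltp reached 0.0364 of the Lcat level in Huwe1_LKO livers and 0.367 of it in WT livers. Over all genes of the deposited table, 4.41% rose and 5.56% fell. Of 14 listed genes within 100 kb of Lcat, 9 of them with a mean value of 10 or more, 2 rose and 0 fell there. These were Slc12a4, a potassium-chloride cotransporter at 468 in Huwe1_LKO livers and 258 in WT livers (adjusted p = 5.07e-06), and Edc4, a scaffold of mRNA decapping, at 507 in Huwe1_LKO livers and 385 in WT livers (adjusted p = 0.0071), both looked up for their position.

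Mttp encodes the large subunit of the microsomal triglyceride transfer protein, which loads lipid onto nascent apolipoprotein B (Entrez ID 17777; chromosome 3, 138089855 to 138143418). In the authors' deposited table it stood at 3007 in Huwe1_LKO livers and 4757 in WT livers, which leaves 63.2% of the level in WT. The log2 fold change of -0.66 had an implied SE of 0.20, a 1.58-fold lower level (95% interval 1.20 to 2.08). The adjusted p was 0.0159, and it ranged from 0.0121 to 0.0412 over the alternatives. GENCODE lists 2 starts of Mttp, at 138131377 and 138143388, and the deposited value does not separate them. An antisense gene, Gm43691, shares 132 exonic bases with Mttp there.

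Tm6sf2 encodes a membrane protein of the endoplasmic reticulum that is needed for full lipid loading of very low density lipoprotein (Entrez ID 107770; chromosome 8, 70072924 to 70080066). It stood at 529 in Huwe1_LKO livers and 569 in WT livers in the authors' deposited table. The log2 fold change of -0.11 had an implied SE of 0.21 (adjusted p = 0.847). The 95% interval of the ratio, 0.702 to 1.23, overlaps that of Mttp, 0.480 to 0.832. A difference between the changes of Tm6sf2 and Mttp was not tested.

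The partners of these 2 genes showed no called change. P4hb, the small subunit of the transfer protein, stood at 20339 in Huwe1_LKO livers and 23097 in WT livers, and Apob, the particle's structural protein, at 52168 in Huwe1_LKO livers and 53219 in WT livers in the authors' deposited table. Their ratios were 0.881 (95% interval 0.689 to 1.13) and 0.980 (0.790 to 1.22), with adjusted p of 0.683 and 0.955. Of 20 listed genes of particle assembly and export, none passed in DESeq2's deposited result, against 9.97% of all genes. Of the 20, 3 had an unadjusted p under 0.05. Their log2 fold changes ran from -0.42 to 0.33 with a median of -0.10, against 0.02 over all genes. Among listed genes of export from the endoplasmic reticulum, the deposited log2 fold changes were -0.33 for Sec23a and -0.30 for Sar1b. Their deposited unadjusted p were 0.0257 and 0.0312, and their adjusted p 0.158 and 0.18. Mia2 stood at -0.19, Surf4 at -0.10, Sec24a at -0.02, Sar1a at -0.01, Klhl12 at 0.03 and Mia3 at 0.16.

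**Figure D2:**
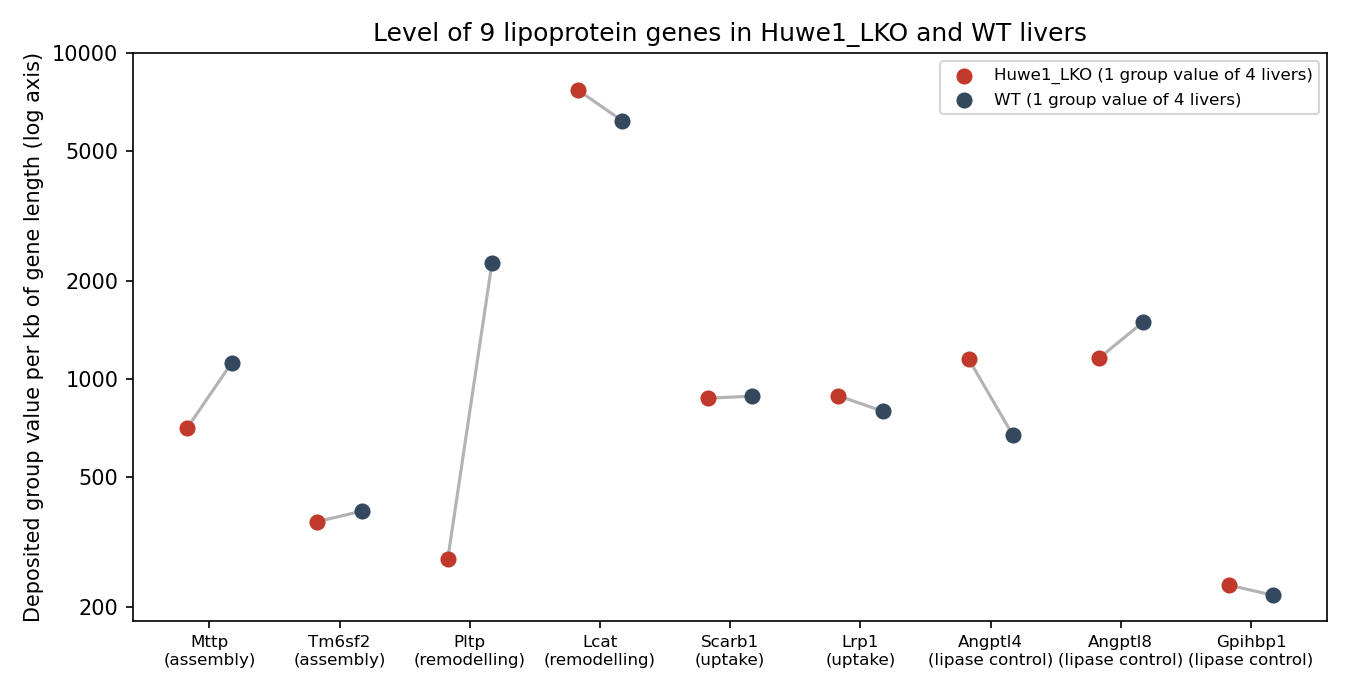
Deposited group value per kb of gene length (y axis, log) of the 9 genes in Huwe1_LKO livers (red, left) and WT livers (blue, right), 1 value per group of 4 livers. Pltp stands at 280 in Huwe1_LKO livers and 2273 in WT livers, and Lcat is the highest of the 9 in both groups.

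Per kb of gene length, which allows levels to be set side by side, Lcat ranked first of the 9 in both groups, with a deposited value of 7697 per kb in Huwe1_LKO livers and 6200 per kb in WT livers. Gpihbp1 ranked last in both, with 234 per kb in Huwe1_LKO livers and 218 per kb in WT livers. Pltp ranked 8th of 9 in Huwe1_LKO livers and 2nd in WT livers. Scarb1, Lrp1, Angptl4, Angptl8 and Mttp lay between 709 and 1158 per kb in Huwe1_LKO livers and between 674 and 1496 per kb in WT livers. The deposited table gives no spread between livers for a level, so the order of neighbouring genes was not tested.

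Scarb1 encodes the scavenger receptor that takes cholesteryl ester from HDL (Entrez ID 20778; chromosome 5, 125277087 to 125341094). Its deposited value was 2187 in Huwe1_LKO livers and 2221 in WT livers. The ratio of 0.985 had a 95% interval of 0.744 to 1.30, and the adjusted p in the authors' deposited table was 0.981. Pdzk1, the adaptor that holds the receptor at the hepatocyte surface, stood at 964 in Huwe1_LKO livers and 1173 in WT livers, with a ratio of 0.822 and an adjusted p of 0.139.

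Lrp1 encodes a large receptor for remnants rich in apolipoprotein E (Entrez ID 16971; chromosome 10, 127538157 to 127621148). It stood at 13248 in Huwe1_LKO livers and 11894 in WT livers in the authors' deposited table, a ratio of 1.11 with a 95% interval of 0.900 to 1.38 (adjusted p = 0.695). Its folding chaperone Lrpap1 stood at 643 in Huwe1_LKO livers and 763 in WT livers, a ratio of 0.843 (deposited adjusted p = 0.198).

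Among 22 other genes of receptor uptake, the authors' deposited table called 1 higher and 2 lower and left 19 uncalled. Over all genes, 4.41% were called higher and 5.56% lower. Among genes with a mean value of 100 or more, 15.0% were called. The list's median log2 fold change was -0.12, against 0.02 over all genes. Lrp5, a relative of Lrp1 best known as a Wnt co-receptor, fell to 745 in Huwe1_LKO livers, against 1118 in WT livers (adjusted p = 0.00236 in the deposited table). Cd36, a fatty acid translocase that also binds oxidised particles, fell to 362 in Huwe1_LKO livers, against 1714 in WT livers (adjusted p = 8.95e-12 in the deposited table). The 1 gene that rose was Lsr, the lipolysis-stimulated receptor, at 4338 in Huwe1_LKO livers and 2554 in WT livers (log2 fold change 0.76, implied SE 0.16, adjusted p = 0.000128).

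Angptl4 encodes a secreted inhibitor of lipoprotein lipase that is known to rise with fasting (Entrez ID 57875; chromosome 17, 33774900 to 33781575). It had the highest log2 fold change of the 9 genes, with 2213 in Huwe1_LKO livers and 1291 in WT livers in the authors' deposited table. The log2 fold change of 0.78 had an implied SE of 0.30, a 1.71-fold ratio with a 95% interval of 1.14 to 2.59. The adjusted p of 0.0842 missed the threshold. It passed (0.0444) when the fold changes were centred on the most abundant eighth of genes, the lowest of a range up to 0.0899 over the alternatives.

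Angptl8 encodes a small secreted protein that rises with feeding and takes part in lipase inhibition (Entrez ID 624219; chromosome 9, 21835510 to 21837347). Its deposited value was 1027 in Huwe1_LKO livers and 1327 in WT livers. The ratio of 0.774 had a 95% interval of 0.491 to 1.22, with a deposited adjusted p of 0.644. The interval includes a ratio as low as the 0.632 of Mttp.

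Gpihbp1 encodes the anchor that carries lipoprotein lipase to the capillary wall and is made by endothelial cells (Entrez ID 68453; chromosome 15, 75596630 to 75598213). It stood at 184 in Huwe1_LKO livers and 171 in WT livers in the authors' deposited table, a ratio of 1.07 with a 95% interval of 0.807 to 1.43 (adjusted p = 0.853). Of 14 endothelial markers, 1 rose, Fcgr2b, at 505 in Huwe1_LKO livers and 341 in WT livers (adjusted p = 0.0202 in the deposited table), and 0 fell. Over all genes, 4.41% rose and 5.56% fell. The deposited values of the 14 summed to 5427 in Huwe1_LKO livers and 5117 in WT livers. In whole liver, a change in the number of cells of a type and a change in RNA per cell cannot be told apart.

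The implied SEs of most of the 9 genes were large for their level, and those of the 2 angiopoietin-like genes the largest. Among genes within 2-fold of its mean value, the error of Angptl4 (0.30) lay above 96.4% of 1863 genes and that of Angptl8 (0.34) above 98.1% of 2527 genes. The same share was 89.3% for Tm6sf2, 88.4% for Scarb1, 86.3% for Pltp, 85.1% for Mttp, 76.4% for Gpihbp1 and 59.1% for Lrp1. The error of Lcat (0.11) lay above 21.1% of 346 genes, the lowest share of the 9. Angptl4 thus had a larger fold change than Mttp in size and a larger adjusted p. The part of feeding state at harvest in these errors was not tested.

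**Figure D3:**
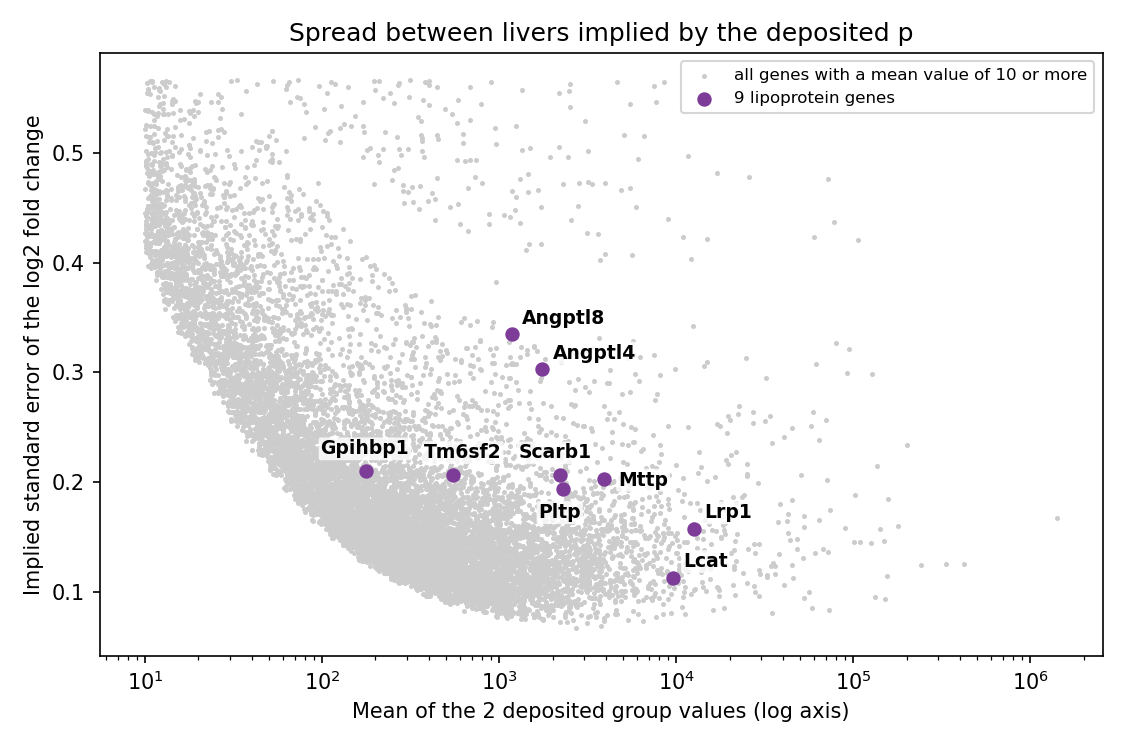
Implied standard error of the deposited log2 fold change (y axis) against the mean of both group values (x axis, log) for genes with a mean value of 10 or more (grey) and the 9 genes (purple). Angptl8 at 0.34 and Angptl4 at 0.30 stand above most genes of their level, and Lcat at 0.11 stands low.

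Of 12 other genes of lipoprotein lipase and its control, the authors' deposited table called 2 lower and 0 higher and left 10 uncalled. The shares over all genes were 5.56% lower and 4.41% higher. Among genes with a mean value of 100 or more, 15.0% were called. The median log2 fold change was -0.13, against 0.02 over all genes. Apoc2, the obligate activator of the lipase, fell to 3592 in Huwe1_LKO livers, against 6337 in WT livers (adjusted p = 0.0381 in the deposited table, and 0.0691 when centred on the most abundant eighth). Pcsk6, a proprotein convertase, fell to 1111 in Huwe1_LKO livers, against 2562 in WT livers (adjusted p = 3.59e-05 in the deposited table). Lpl itself stood at 353 in Huwe1_LKO livers and 223 in WT livers, a ratio of 1.59 whose 95% interval of 0.855 to 2.94 includes no change (adjusted p = 0.463 in the authors' deposited table). Lmf1, which folds the lipase, stood at 1214 in Huwe1_LKO livers and 1146 in WT livers (adjusted p = 0.847 in the deposited table).

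Among 14 other genes of HDL and plasma remodelling, the authors' deposited table called 1 higher and 1 lower and left 12 uncalled. The shares over all genes were 4.41% higher and 5.56% lower. The list's median log2 fold change was 0.03, against 0.02 over all genes. The RNA levels of the 2 main HDL proteins moved in opposite directions, and both calls were lost at an adjusted p of 0.01. The call of Apoa1 was also lost with a 1.5-fold change required. Apoa1, which activates Lcat, rose to 210440 in Huwe1_LKO livers, against 146303 in WT livers (log2 fold change 0.52, implied SE 0.16, adjusted p = 0.0152). Apoa2 fell to 106683 in Huwe1_LKO livers, against 164596 in WT livers (log2 fold change -0.63, implied SE 0.21, adjusted p = 0.0392 in the deposited table, and 0.085 when centred on the most abundant eighth). Abca1, the transporter that starts HDL formation, stood at 1866 in Huwe1_LKO livers and 1976 in WT livers (deposited adjusted p = 0.80).

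Listed were 19 transcription factors known to act on the 9 genes. The authors' deposited table called 1 of them higher and 4 lower and left 14 uncalled. Over all genes, 4.41% were called higher and 5.56% lower. Among genes with a mean value of 100 or more, 15.0% were called in either direction. The median log2 fold change of the 19 was 0.05, against 0.02 over all genes. Nr1h3, the liver X receptor alpha of which Pltp is a known target, fell to 1314 in Huwe1_LKO livers, against 1657 in WT livers (log2 fold change -0.34, implied SE 0.10, adjusted p = 0.00863, and 0.0683 when centred on the most abundant eighth). The part of Nr1h3 in the Pltp level was not tested. Pparg, Srebf1 and Mlxipl, which drive fat storage and synthesis, fell with deposited log2 fold changes of -2.09, -0.88 and -0.41. The adjusted p of Mlxipl was 0.0150, and 0.0696 when centred on the most abundant eighth. Hnf4a, a hepatocyte factor known to act on Mttp, rose to 11654 in Huwe1_LKO livers, against 8990 in WT livers (adjusted p = 0.0318 in the deposited table). The call of Hnf4a was lost at an adjusted p of 0.01 and with a 1.5-fold change required. The part of Hnf4a in the Mttp level was not tested. Foxo1, another known activator of Mttp, stood at 808 in Huwe1_LKO livers and 572 in WT livers (deposited adjusted p = 0.102, and 0.0410 when centred on the most abundant eighth). Nr0b2, also listed, stood at 446 in Huwe1_LKO livers and 729 in WT livers (deposited log2 fold change -0.71, adjusted p = 0.415). Ppara, which acts on Angptl4, stood at 4639 in Huwe1_LKO livers and 5555 in WT livers (deposited adjusted p = 0.389).

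**Figure D4:**
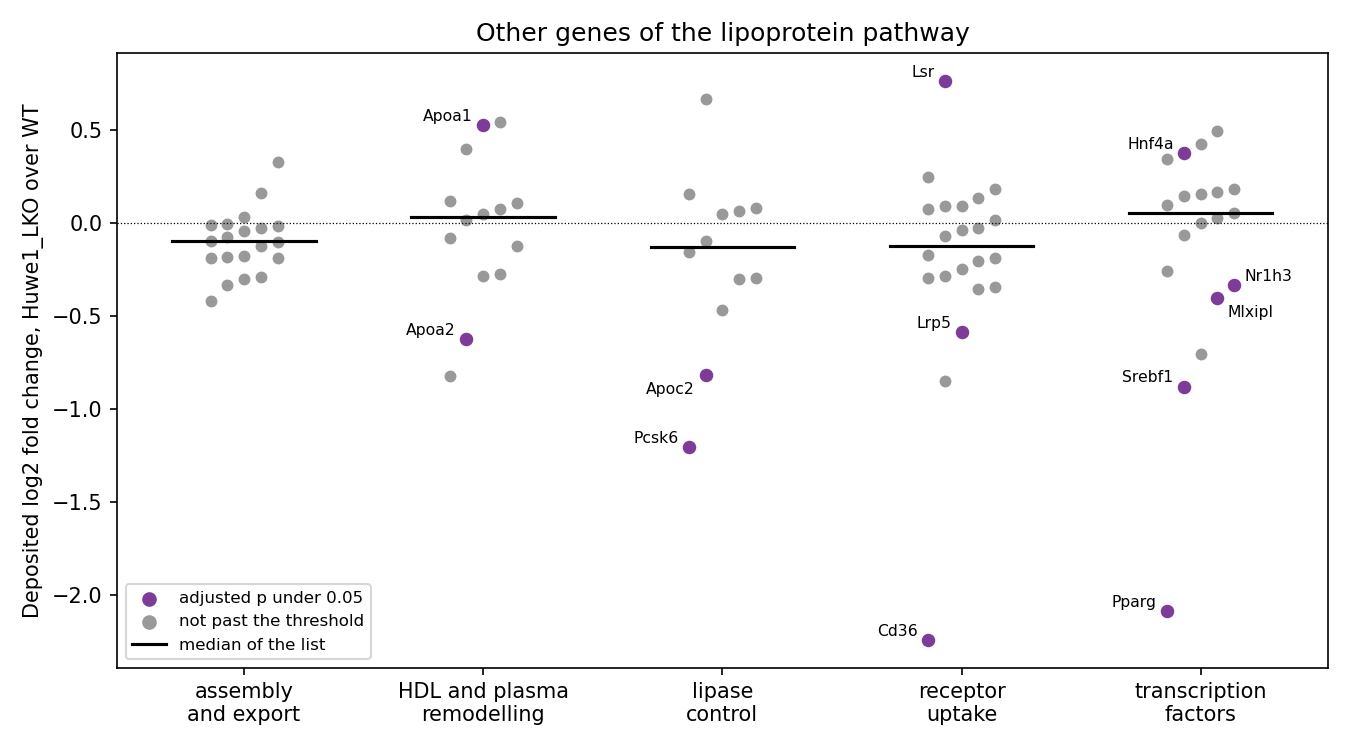
Deposited log2 fold change of Huwe1_LKO over WT livers (y axis) for the other genes of the lipoprotein pathway in 5 lists (x axis), 1 point per gene, with purple for an adjusted p under 0.05 and a line at the list's median. The 20 assembly genes hold no purple point, and the largest falls are Cd36 at -2.24 and Pparg at -2.09.

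The authors' annotation terms tie some of the 9 genes together. Triglyceride homeostasis was assigned to Scarb1, Angptl4, Angptl8 and Gpihbp1 and to 23 genes of the deposited table in all, of which 5 fell and 2 rose. Cholesterol homeostasis was assigned to Mttp, Lcat, Scarb1 and Gpihbp1 and to 56 genes in all, of which 10 fell and 1 rose. No other term was assigned to more than 3 of the 9. These counts include the 9 genes, stand beside the 9.97% called over all genes, and were not tested further.

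Across the whole table, the deposited values summed to 17533080 in Huwe1_LKO livers and 17347886 in WT livers. Of all its genes 9.97% passed, 4.41% as higher and 5.56% as lower. Huwe1 itself stood at 1784 in Huwe1_LKO livers and 2666 in WT livers per the authors' deposited table (a log2 change of -0.58, implied SE 0.13, adjusted p = 0.000425). Of 8 hepatocyte markers, which include Hnf4a and Apoa2 of the lists above, 2 rose and 1 fell, and their deposited values, led by Alb, summed to 2122640 in Huwe1_LKO livers and 1679890 in WT livers. Of 11 macrophage markers, none passed in DESeq2's deposited result, 0 had an unadjusted p under 0.05, and the sums were 4883 in Huwe1_LKO livers and 4203 in WT livers. Of 9 stellate cell and fibroblast markers, Lum alone rose and 0 fell, with sums of 5614 in Huwe1_LKO livers and 4969 in WT livers. Of 6 bile duct markers, none passed in DESeq2's deposited result, 1 had an unadjusted p under 0.05, and the sums were 1629 in Huwe1_LKO livers and 906 in WT livers. That gene was Spp1, which made up most of both sums, with 1410 in Huwe1_LKO livers and 722 in WT livers (deposited adjusted p = 0.174). Of 7 adipocyte markers found, none passed in DESeq2's deposited result and 2 had an unadjusted p under 0.05. Their sums were 443 in Huwe1_LKO livers and 500.1 in WT livers, and Lipe, which other cells also express, made up most of both sums, with 383 in Huwe1_LKO livers and 361 in WT livers. The 2 genes with the unadjusted p under 0.05 had log2 fold changes below 0. Cfd stood at 57.8 in Huwe1_LKO livers and 135 in WT livers (deposited adjusted p = 0.171), and Retn at 1.23 in Huwe1_LKO livers and 3.30 in WT livers (deposited adjusted p = 0.0757). Adipoq, which defines adipocytes, was near 0, at 0.394 in Huwe1_LKO livers and 0.368 in WT livers, and Lep, Adig and Tshr also had a mean value under 1 in the authors' deposited table.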

How the data were processed

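Total RNA of each liver was extracted with a column kit and sequenced by BGI Genomics, per the labels' protocols. Reads were compared with DESeq2 on mm10 (GRCm38), per the submitters' processing notes, which name no version. The sources used here name no aligner, counting step or filter. The single deposited table holds, for each group, a signal normalized for depth and not for length, per the file headers and values. The deposited log2 fold change equals the log2 ratio of both columns to within 4.71e-08, and the deposited adjusted p-value matches a Benjamini-Hochberg adjustment over 16640 genes to within 1.74e-06.

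With 1 value per gene and group, the planned count model could not be fitted, so calls are the authors' own (adjusted p under 0.05). Standard error was computed as the size of the log2 fold change over the normal score of the two-sided p, which assumes a Wald test, and 95% intervals follow from it. No standard error exceeded 0.57 and genes with hardly any reads have small deposited fold changes, so fold changes may be shrunken toward 0 and intervals too narrow. Apod and Tsnaxip1, both near 0, had the same values, 0.124 in Huwe1_LKO livers and 0.115 in WT livers. The group values may thus be fitted rather than plain means. Since their ratio gives the deposited fold change, shrinkage would also reach the levels and percents of WT given here. Depth per library and counting intervals are unknown. Nothing in the labels says beyond the titles how the livers were collected. The p-values set the group difference against the variation estimated from these samples and do not reach beyond them.

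The 9 genes and all lists were chosen with earlier results of these data known. Named genes were the 9, listed genes past the threshold (at most 6 a list) and direct partners; neighbours within 100 kb, and a few others, were picked by position or role after their values were seen. Coordinates and 5 promoter windows are from RefSeq (GRCm38.p6), and starts and exon overlaps from GENCODE M21 basic. Scarb1, Tm6sf2, Gpihbp1 and Angptl4 had no window, and that of Mttp lies at its upstream start. Plin1 found no match. Some listed genes are not reported here, and the list counts leave them out. scipy 1.17.1, pandas 2.3.3, numpy 2.4.6 and matplotlib 3.10.9 were run under Python 3.11.15, and the computations were tested on simulated data.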

Additional observations from a re-analysis of the deposited data

How the results depend on the processing

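Pltp stayed lower under all 6 alternatives run. Mttp stayed lower under the others but not at an adjusted p of 0.01, which left 1 of the 9 genes called as lower. Called as higher were 2 of the 9 at an adjusted p of 0.1 (Lcat and Angptl4), 1 with adjustment over genes with a mean value of 10 or more (Lcat), and 2 when centred on the most abundant eighth (Lcat with a log2 fold change of 0.39, Angptl4 with 0.86). That centring turned Scarb1, which was not called, to a log2 fold change of 0.0596, and moved the share of higher genes among all calls to 65.1%, against 44.2% as deposited. In the assembly list 1 gene, Tor1a, was lower at 0.1, with the low genes left out, and when centred on genes with a mean value of 10 or more. In the remodelling list the lower calls were 0 at 0.01, 2 at 0.1, 2 with low genes left out and 0 when centred on the most abundant eighth; the higher calls were 0 at 0.01, 2 under that centring and 0 with a 1.5-fold change required. In the lipase list the lower calls were 1 at 0.01 and 1 under that centring. In the uptake list 2 were higher under that centring. Of the transcription factors, 2 were lower under that centring and 2 with a 1.5-fold change required, and the higher calls were 0 at 0.01, 2 under that centring and 0 with the 1.5-fold change. The cause was not tested. DESeq2 size factors against edgeR and leaving out each liver were not run, since they need values per liver. No paired analysis was possible because the deposited columns hold 1 value per group and carry no replicate number.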
